A study of Oryza sativa with 23 samples.

Results

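Plasma membrane intrinsic proteins (PIPs) were measured in rice roots as 10 loci, PIP1-1 to PIP1-3 and PIP2-1 to PIP2-7 (the rice genes OsPIP1;1 to OsPIP1;3 and OsPIP2;1 to OsPIP2;7, here under their RefSeq synonyms), chosen by locus identifier and not by signal out of the 52901 probes of a custom Agilent array. Each locus was matched by 1 probe on 1 spot, and none of these spots was saturated or marked as an outlier on any array. RNA from roots collected 25 days after sowing was hybridised on 23 single-colour arrays in 8 groups, formed by 4 genotypes under drought or well watered, with 3 arrays in each of 7 groups and 2 in well-watered IR64-Tr-E2. Drought pots dried down from 75% of field capacity. The wet pots of IR64-Tr-E2 and IR64-WT were kept at 1.2 times that capacity and those of NIL-481-B and Vandana at the capacity itself, so the wet baseline differed between the 2 backgrounds. IR64-Tr-E2 is a single transgenic event of the cultivar IR64 that overexpresses OsNAM12.1, a no-apical-meristem type transcription factor gene, and IR64-WT is the untransformed cultivar. NIL-481-B is a near isogenic line (NIL) of the upland cultivar Vandana that carries the qDTY12.1 drought-yield locus of the cultivar Way Rarem, and Vandana is its recipient parent. The sources used here do not say which plants went into which array, so the tests below measure the spread between arrays of a group, which may be partly technical.

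PIPs are the water channels of the plant plasma membrane and carry much of the water that crosses root cells on its way to the xylem. They assemble as tetramers and fall into a PIP1 and a PIP2 group. PIP2 proteins conduct water well on their own when produced in frog oocytes, whereas PIP1 proteins, as shown with maize proteins, often need a PIP2 partner to reach the plasma membrane. Among the rice members PIP1-3, first described as RWC3, has been studied in upland and lowland rice under water deficit, and PIP2-3 and PIP2-5 are known as root-expressed genes. PIP2-4, PIP2-6 and PIP2-7 also let arsenite through in oocytes.

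The share of spots well above background ranged between 31.6% and 64.2% per array. In IR64-Tr-E2 it was 44.1% and 43.8% on well-watered arrays and 50.2% to 57.2% on drought arrays. In IR64-WT, NIL-481-B and Vandana the ranges of the treatments overlapped. The drought labels were checked on 3 known drought genes, on the quantile-normalized log2 scale that is used for all levels below. The signal of the dehydrin gene RAB16A was 11.05 to 13.87 on drought arrays and 5.22 to 7.61 on well-watered arrays. OsLEA3-1 had 12.1 to 15.17 on drought arrays and 6.77 to 8.58 on well-watered arrays. For the dehydrin gene DIP1 the ranges overlapped, at 9.94 to 11.65 under drought and 8.5 to 10.52 when well watered. Of 5 root transporter markers, Lsi1 and OsNRT2.1 were well above background on 23 of 23 arrays, Lsi2 on 22, OsIRT1 on 17 and OsAMT1;2 on 2. Of 5 leaf markers (2 RbcS, 2 CAB and 1 FBA locus, for chloroplast proteins), none was at background throughout. Their summed signal lay between 13.34 and 15.60 on 7 arrays (IR64-Tr-E2 drought replicate 2, IR64-WT drought replicate 1, IR64-WT well-watered replicate 1, NIL-481-B drought replicates 2 and 3, NIL-481-B well-watered replicate 2 and Vandana well-watered replicate 2) and between 7.09 and 11.51 on the other 16. The array labelled Vandana well-watered replicate 2 stood at 0.861 on a scale from Vandana-like (0) to IR64-like (1) set by 271 probes, where the well-watered IR64 arrays stood at 0.832 to 0.931 and the other well-watered NIL-481-B and Vandana arrays at 0.004 to 0.117. For member comparisons that involve well-watered Vandana, values without this array are also given for part of the results. The group orders and the values of other aquaporins are given only with it.

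Of the 10 members, 8 were well above background on all 23 arrays. These were PIP1-1 (LOC_Os02g44630), PIP1-2 (LOC_Os04g47220), PIP1-3 (LOC_Os02g57720), PIP2-1 (LOC_Os07g26690), PIP2-2 (LOC_Os02g41860), PIP2-3 (LOC_Os04g44060), PIP2-4 (LOC_Os07g26630) and PIP2-5 (LOC_Os07g26660). PIP2-6 (LOC_Os04g16450) and PIP2-7 (LOC_Os09g36930) were each well above background on 1 array, in both cases IR64-Tr-E2 drought replicate 1, at log2 signals of 3.26 and 3.76. On the other 22 arrays these 2 probes were not well above background, and differences between groups for them compare background-level values. The signal of a probe depends on its sequence, so levels are compared here only between arrays and never between members. In the RefSeq annotation of a newer rice assembly (ASM3414082v1) all 10 names were found, on the same chromosome as the locus identifier gives. PIP2-1 and PIP2-5 were direct neighbours there on chromosome 7, and PIP2-4 lay 1 annotated gene beyond PIP2-5.

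Among the 8 members measured above background, 1 passed the test across all probes for drought, where 26.5% of all probes passed and 14.2% were higher, so 1 of 8 is not above the background. PIP1-2, a PIP1 channel gene, rose 1.74-fold under drought in the mean over the 4 genotypes (log2 difference 0.80 ± 0.23 SE, limma adjusted p = 0.0175 over all probes). PIP1-1, PIP2-2, PIP2-3, PIP2-4 and PIP2-5 had mean log2 differences between 0.55 and 0.85 that did not pass, and PIP1-3 and PIP2-1 had differences of 0.02 and 0.01. The call for PIP1-2 was lost without the 7 arrays with high leaf markers (log2 difference 0.49 ± 0.27, adjusted p = 0.268). It was also lost when 1 array, well-watered replicate 1 of IR64-Tr-E2, was dropped (0.72, adjusted p = 0.057), and it held without Vandana well-watered replicate 2 (0.73 ± 0.24, adjusted p = 0.0316).

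PIP1-2 had the narrowest range of the 8 members over the drought arrays. Its log2 signal on drought arrays was 14.58, 14.81 and 14.11 in IR64-Tr-E2, 14.14, 14.08 and 14.18 in IR64-WT, 14.45, 14.83 and 14.23 in NIL-481-B and 14.28, 14.83 and 14.17 in Vandana. On well-watered arrays it was 12.66 and 13.28 in IR64-Tr-E2, 13.05, 14.32 and 13.72 in IR64-WT, 14.16, 13.21 and 14.87 in NIL-481-B and 14.72, 13.07 and 13.04 in Vandana. All 12 drought arrays thus lay within 14.08 to 14.83, while the well-watered arrays spread over 12.66 to 14.87, and in IR64-WT, NIL-481-B and Vandana at least 1 well-watered array reached into the drought range. The drought groups averaged 14.50 ± 0.35 in IR64-Tr-E2, 14.13 ± 0.05 in IR64-WT, 14.50 ± 0.31 in NIL-481-B and 14.43 ± 0.35 in Vandana (SD, n = 3 each). The well-watered groups averaged 12.97 ± 0.44 in IR64-Tr-E2 (SD, n = 2), and 13.70 ± 0.63 in IR64-WT, 14.08 ± 0.83 in NIL-481-B and 13.61 ± 0.97 in Vandana (SD, n = 3 each). In bulk roots, a higher signal per cell and a larger share of the cells that express a gene cannot be told apart.

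**Figure D1:**
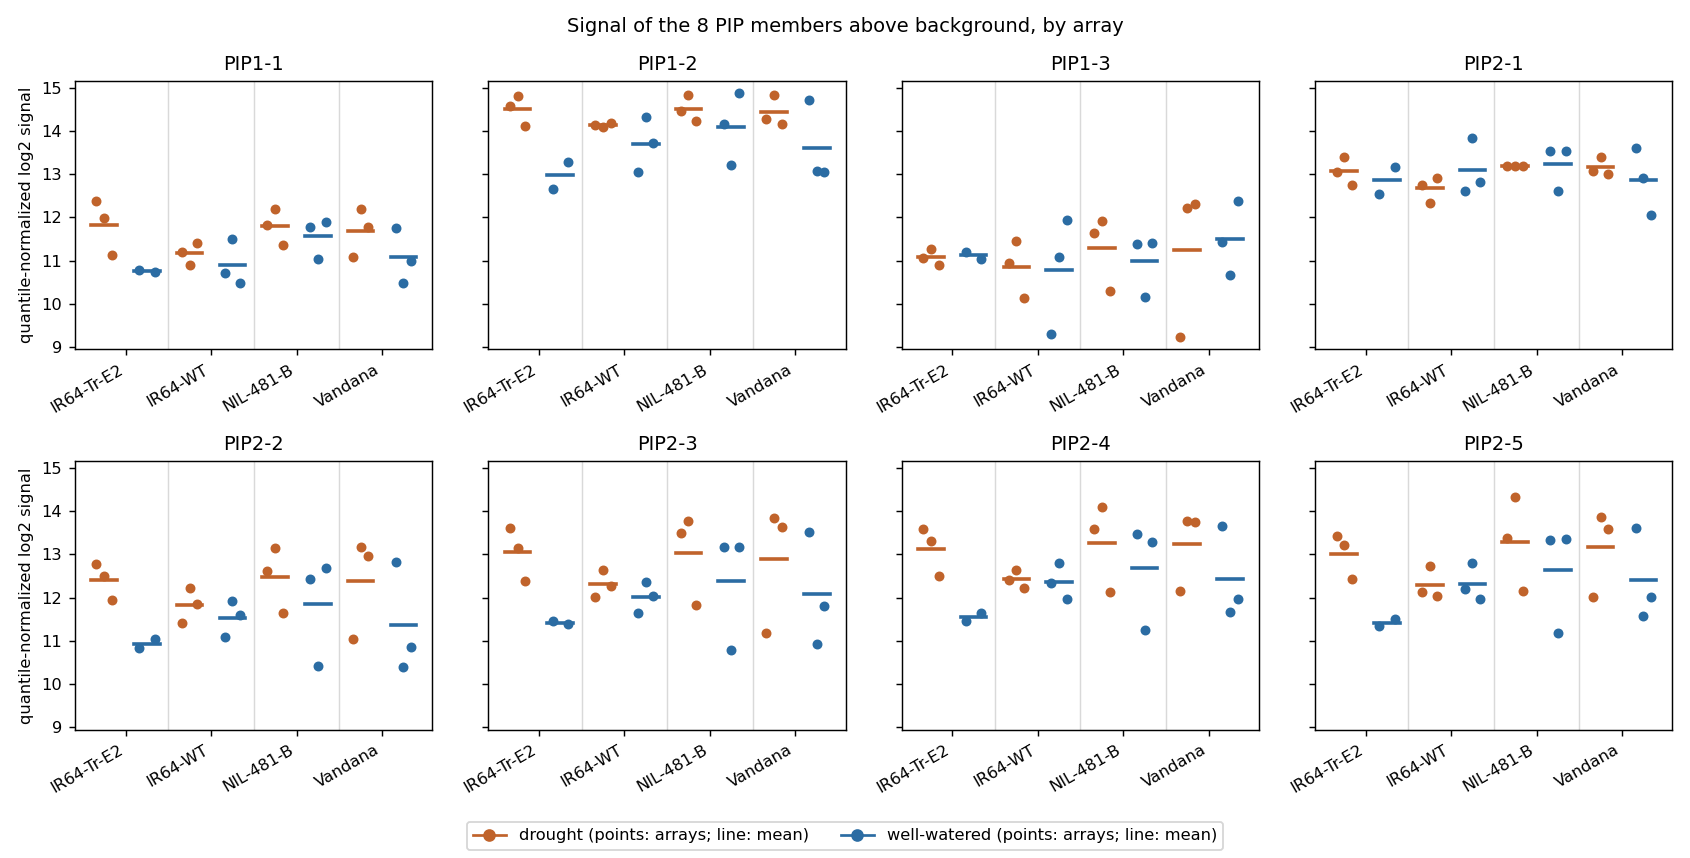
Quantile-normalized log2 signal (y axis) of the 8 PIP members that were well above background on all 23 arrays, by genotype (x axis), drought left of well-watered. Points are single arrays and lines are group means. PIP1-2 lay within 14.08 to 14.83 on all 12 drought arrays. Levels of different probes are not comparable between panels.

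Of the 10 members 2 were called in the mean response (adjusted p below 0.05 by Benjamini-Hochberg over all probes), PIP1-2 and PIP2-7, both higher under drought, beside the 26.5% of all probes called in either direction and the 14.2% called higher. With so few members, nothing is read from 2 of 10. The call for PIP2-7 (log2 difference 0.93 ± 0.28, adjusted p = 0.0214) rests on values that were not well above background on 22 arrays, so no fold is given for it, and it was lost after normexp background correction (0.09, adjusted p = 0.0765) and after a 75th percentile shift (0.17, adjusted p = 0.749). Among the members above background, 95% confidence intervals of the mean response were 0.11 to 0.98 for PIP1-1, 0.12 to 1.59 for PIP2-2, 0.0 to 1.69 for PIP2-3, 0.06 to 1.46 for PIP2-4 and 0.02 to 1.47 for PIP2-5 (adjusted p = 0.058, 0.0807, 0.134, 0.104 and 0.123 by limma). Without Vandana well-watered replicate 2 these 5 differences were 0.47 ± 0.2, 0.73 ± 0.35, 0.7 ± 0.4, 0.66 ± 0.34 and 0.64 ± 0.35. Their unadjusted limma p was then 0.0329, 0.05, 0.095, 0.0663 and 0.0819, so the last 3 intervals included 0. The median over the 8 members was 0.75, beside -0.06 over all probes. Single arrays moved the count of calls: it was 6 without Vandana well-watered replicate 1, 5 without Vandana drought replicate 1, 4 without NIL-481-B drought replicate 3 and 2 without Vandana well-watered replicate 2. When well-watered replicate 1 of IR64-Tr-E2 was dropped it was 1. Without the 7 arrays with high leaf markers it was 0, with 14.3% of all probes called, and the part of those arrays in the result was not tested further.

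Taken genotype by genotype, 0 of 10 members were called for drought in IR64-Tr-E2, where 8.16% of all probes were. In limma's fit 4 of the 10 had an unadjusted p below 0.05. PIP1-2 had the smallest adjusted p (log2 difference 1.53 ± 0.51, adjusted p = 0.0712), and it passed when probes not well above background were left out of the test and when Vandana well-watered replicate 1 was left out (adjusted p = 0.0346). In IR64-Tr-E2 the median difference over the 8 members was 1.50, beside -0.05 over all probes. Of the 8 members, 6 had all 3 drought arrays above both well-watered arrays, as did 21.6% of all probes.

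PIP2-4, a PIP2 channel, had log2 signals of 13.58, 13.32 and 12.50 on drought arrays of IR64-Tr-E2, against 11.45 and 11.64 when well watered. PIP2-5, its chromosome 7 companion, had 13.43, 13.21 and 12.42, against 11.35 and 11.50. PIP2-3 had 13.62, 13.14 and 12.38, against 11.46 and 11.38. In all of these the lowest drought array, replicate 3, stayed above the wet arrays of the line. The fitted differences were 1.59 ± 0.72 for PIP2-4 (adjusted p = 0.169), 1.60 ± 0.74 for PIP2-5 (adjusted p = 0.182) and 1.63 ± 0.87 for PIP2-3 (adjusted p = 0.244), all by limma. PIP1-1 had 12.38, 11.98 and 11.13 under drought, against 10.78 and 10.73, and PIP2-2 had 12.77, 12.51 and 11.94, against 10.83 and 11.05. PIP1-3 and PIP2-1 did not separate by treatment in this line, with differences of -0.04 ± 0.86 and 0.20 ± 0.42. Within a slide, the median gap over the 8 members was 1.93 on slide 1 and 1.50 on slide 3, with 1 array of each treatment.

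In IR64-WT 0 of 10 members were called, where 4.99% of all probes were, and 0 had an unadjusted p below 0.05. Its 3 drought arrays gave 12.41, 12.64 and 12.23 for PIP2-4, against 12.34, 12.79 and 11.98 when well watered, so the treatments overlapped throughout. The fitted difference was 0.06 ± 0.64, and that for PIP2-5 was -0.02 ± 0.67. The median over the 8 members was 0.17. Within slides the median was -0.35 on slide 2 and 0.51 on slide 3, and with slide as a block in the fit it was -0.47, so no direction can be given for this genotype. None of the 8 members had its drought arrays all above its well-watered arrays, as 10.4% of all probes did.

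In NIL-481-B 0 of 10 members were called, where 0.582% of all probes were. The 8 members had a median difference of 0.51 with a wide spread between arrays: PIP2-4 had 13.58, 14.10 and 12.12 on drought arrays, against 13.48, 11.26 and 13.29 when well watered. Drought replicate 3 and well-watered replicate 2 were the low arrays, and both were among those with high leaf markers, while drought replicate 2, also with high leaf markers, was the highest for PIP2-4. Within slides the median gap took values of 0.13, 2.22 and -1.08. Leaving out the high leaf marker arrays left a median of 0.04 with 1 drought array. None of the 8 members separated by treatment, as 9.39% of all probes did with drought arrays higher.

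In Vandana 0 of 10 members were called, where 1.70% of all probes were. PIP2-4 had 12.16, 13.78 and 13.75 on drought arrays, against 13.66, 11.67 and 11.97 when well watered. In each treatment 1 array lay apart from the rest of its group: drought replicate 1 was low and well-watered replicate 1 was high. The median difference over the 8 members was 0.78 with all arrays, 0.34 without well-watered replicate 2 and 1.19 with slide as a block, and PIP2-4 had 0.80 ± 0.64 (adjusted p = 0.54 by limma) with all arrays and 0.42 ± 0.71 (adjusted p = 0.816) without that replicate, the array with the IR64-like position. None of the 8 members had its drought arrays all above its well-watered arrays, as 9.33% of all probes did. Slides 2 and 3 each held 1 array of both treatments, and there the median gaps were 1.82 and 1.81, that of slide 2 being against well-watered replicate 2.

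**Figure D2:**
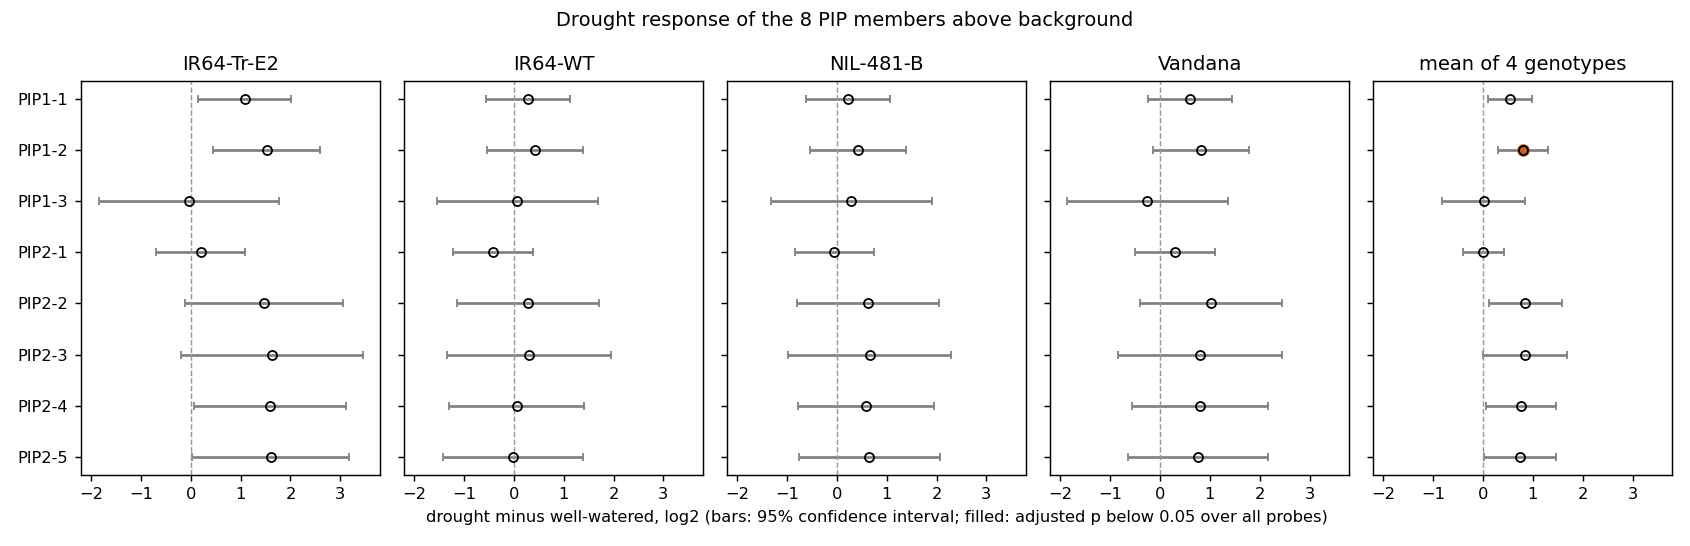
Drought minus well-watered log2 difference (x axis) of 8 PIP members (y axis) in each genotype and in the mean of the 4 genotypes. Points are limma estimates and bars 95% confidence intervals. The filled point is PIP1-2 in the mean response (0.80), the single call among these members.

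The comparison of the transgenic line with its wild type asks whether OsNAM12.1 overexpression went with other PIP levels or another drought response. Under drought 0 of 10 members were called, as were 0% of all probes, and the 8 members were each higher in IR64-Tr-E2, with differences between 0.23 and 0.74. When well watered 0 of 10 were called, beside 0.0113% of all probes, and 7 of the 8 were lower in IR64-Tr-E2 (median -0.60). A fit with slide as a block put this median at -1.27, with 8 of 8 lower, and 0 of 10 were called. For the difference in drought response 0 of 10 were called, beside 0% of all probes. The estimates were 1.62 for PIP2-5 (95% confidence interval -0.49 to 3.73), 1.53 for PIP2-4 (-0.50 to 3.57), 1.33 for PIP2-3 (-1.13 to 3.79), 1.18 for PIP2-2 (-0.95 to 3.31), 1.10 for PIP1-2 (-0.34 to 2.54), 0.80 for PIP1-1 (-0.45 to 2.06), 0.62 for PIP2-1 (-0.58 to 1.81) and -0.11 for PIP1-3 (-2.54 to 2.31), with unadjusted p between 0.123 and 0.924 and an adjusted p of 1.0 for each by limma. Each interval holds 0 and reaches past 1 log2 unit in favour of the transgenic line. The median over the 8 members was 1.14, and 1.74 with slide as a block (2.34 for PIP2-3). The response difference shares its wet baseline with the lower well-watered levels of IR64-Tr-E2, which rest on 2 arrays. PIP2-4 and PIP2-5, with the probe LOC_Os07g26640, are on the study's own list of genes higher with OsNAM12.1, which was chosen on these samples, so their values are not independent evidence of that direction.

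For the near isogenic line against its parent 0 of 10 members were called under drought (0.00567% of all probes), 0 of 10 when well watered (0.00189%) and 0 of 10 in drought response (0.00189%). Under drought the 8 members differed by 0.02 to 0.15 between NIL-481-B and Vandana, with a 95% confidence interval of -1.32 to 1.39 for PIP2-4 and of -0.89 to 1.04 for PIP1-2. With slide as a block the median under drought was -0.43 in place of 0.08. When well watered the median was 0.33, and -0.07 without Vandana well-watered replicate 2, where the difference for PIP2-4 was -0.14 ± 0.71 in place of 0.24 ± 0.64. The difference in drought response for PIP2-4 was -0.21, and 0.18 without that array. The median of this difference was -0.28 with all arrays, 0.12 without that array and -0.70 with slide as a block, so no direction can be given.

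Between the backgrounds, 0 of 10 members were called for IR64 lines against Vandana lines under drought (3.50% of all probes), when well watered (1.54%) and in drought response (0.0246%). The 8 members were each lower in the IR64 lines, by a median of -0.31 under drought and of -0.50 when well watered, and none passed. With slide as a block these medians were -0.65 under drought and -0.30 when well watered, where 2 of the 8 were then higher in the IR64 lines, and the median difference in drought response was -0.40 in place of 0.10. Without Vandana well-watered replicate 2 the well-watered median was -0.65 and that of the drought response 0.31. PIP2-5 had the widest such gaps, -0.56 (95% confidence interval -1.56 to 0.43) under drought and -0.64 (-1.70 to 0.41) when well watered, the last being -0.85 ± 0.52 without that Vandana array. The wet soil differed between these backgrounds, so background and watering level cannot be told apart when well watered or in the drought response.

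**Figure D3:**
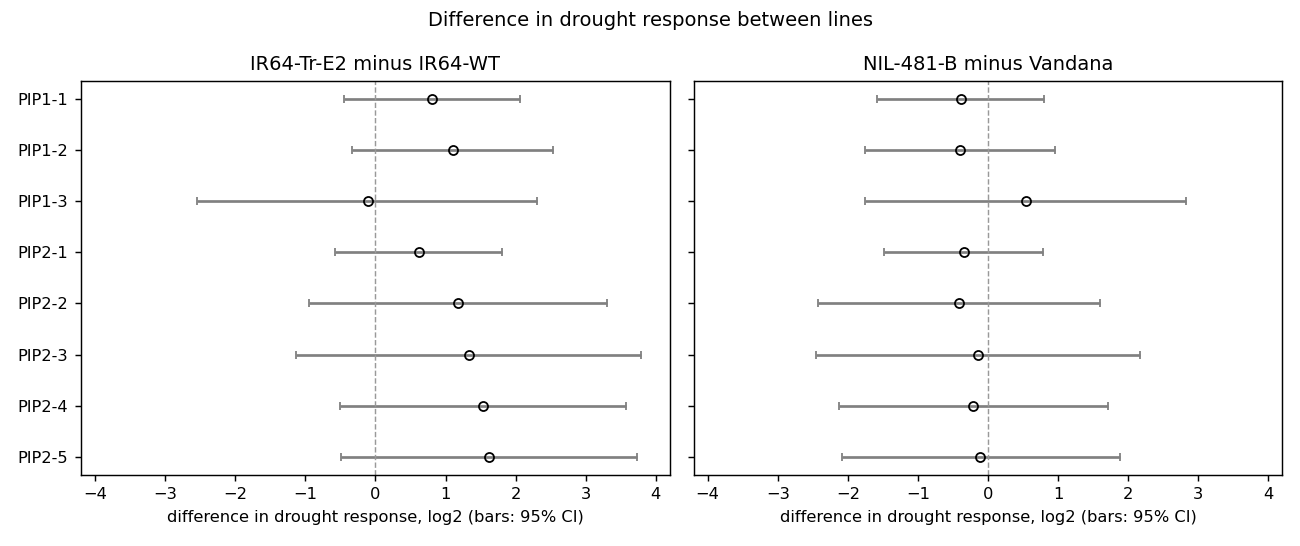
Difference in drought response, in log2 units (x axis), of 8 PIP members (y axis) for IR64-Tr-E2 minus IR64-WT (left) and NIL-481-B minus Vandana (right). Points are limma estimates with 95% confidence intervals, and all 16 intervals include 0. PIP2-5 on the left is at 1.62.

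Over the 8 groups, the order of the means was led by a drought group in 6 of the 8 members and ended with well-watered IR64-Tr-E2 in the same 6 (PIP1-1, PIP1-2, PIP2-2, PIP2-3, PIP2-4 and PIP2-5). Neighbours in these orders mostly overlapped: of the 7 neighbouring pairs, 0 had separate array ranges in PIP1-1, PIP1-2, PIP1-3, PIP2-1 and PIP2-2, and 1 in PIP2-3, PIP2-4 and PIP2-5. Group means spanned 1.73 for PIP2-4, while arrays of 1 group spanned up to 2.22. For PIP1-3, group means spanned 0.72 and the 3 drought arrays of Vandana alone spanned 3.06 (9.23, 12.21 and 12.30). For PIP2-1, the order of groups was led by well-watered NIL-481-B and ended with drought IR64-WT, across 0.56.

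The members moved together from array to array, within groups as well as between them. PIP2-2, PIP2-3, PIP2-4 and PIP2-5, which lie on chromosomes 2, 4 and 7, correlated at Pearson's r of 0.95 to 0.99 in their 6 pairs over the 23 arrays (Spearman's rho 0.95 to 0.99). The permutation p was 1e-05 for each r, the smallest that 100000 permutations can give, and at most 2.12e-05 after adjustment over the 36 pairs computed. The permutations treated all 23 arrays as exchangeable, although these fall into 8 groups on 4 slides. The p therefore does not separate a link between genes from shifts shared by a group or an array. The coefficients were 0.95 to 0.99 without the 2 arrays farthest from the median, 0.94 to 1.00 within slides 1, 2 and 3, and 0.95 to 0.99 for deviations from group means. The 9 pairs among PIP1-1, PIP1-2 and these PIP2 genes had r between 0.79 and 0.88. PIP1-3 and PIP2-1 had lower coefficients, with r of 0.08 to 0.61 and 0.08 to 0.67 in their 7 pairs each. For deviations from group means their r was 0.08 to 0.71 and 0.08 to 0.85. An adjusted permutation p of r below 0.05 was found in 4 of the PIP1-3 pairs and 6 of the PIP2-1 pairs. Between PIP1-3 and PIP2-1 themselves r was 0.08 (rho 0.15, permutation p = 0.729 and 0.508). Points of such a plot share array, slide and normalization. The PIP2-4, PIP2-5 and LOC_Os07g26640 probes belong to loci with adjacent numbers. Here cross-hybridisation was not tested between these probes, nor between them and the PIP2-2 and PIP2-3 probes, nor between those of PIP2-2 and PIP2-3. The paper states that a pilot study served to leave out oligos that might cross-hybridise between family members.

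On several single arrays all or most of the 8 members lay on the same side of their group means. On NIL-481-B well-watered replicate 2 all 8 members lay below their group mean, by 1.09 on average, and the summed leaf marker signal was 14.07. On Vandana drought replicate 1 all 8 lay below, by 1.02, with leaf markers at 7.81, among the lower arrays. On Vandana well-watered replicate 1 the average was 0.97 above, with 7 of 8 members above and leaf markers at 8.30. On NIL-481-B drought replicate 3 it was 0.75 below and on Vandana well-watered replicate 2 it was 0.70 below, with leaf markers at 15.60 and 13.34. IR64-Tr-E2 drought replicate 2 and NIL-481-B drought replicate 2, also high in leaf markers (14.79 and 14.12), lay 0.20 and 0.58 above their group means. The remaining arrays with high leaf markers were both of IR64-WT. Well-watered replicate 1 (14.04) had all 8 members below, by 0.47 on average, and drought replicate 1 (15.06) lay 0.08 below. The sum did not stand for all 5 markers on each of these arrays. The lowest marker was at 4.56 on IR64-WT drought replicate 1 and at 5.3 on IR64-Tr-E2 drought replicate 2. It was at 7.07 on IR64-WT well-watered replicate 1 and at 8.74 to 12.07 on the remaining arrays with a high sum. Low PIP signal thus went with a high leaf marker sum on some arrays and not on others, and the part of leaf RNA in the shifts was not tested.

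**Figure D4:**
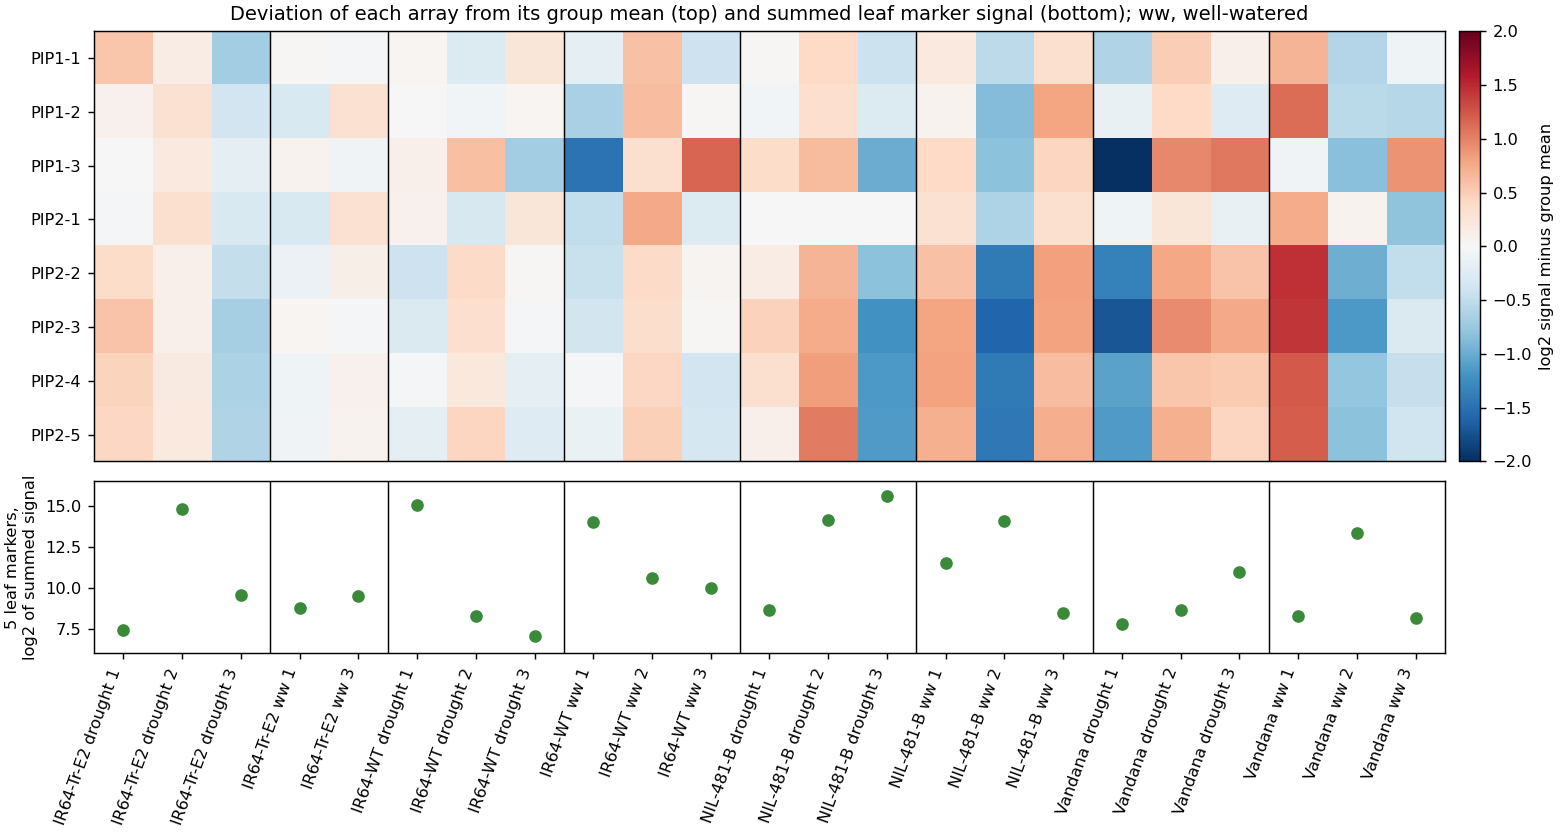
Top, log2 signal minus group mean (colour, limits -2 to 2) of 8 PIP members (rows) on 23 arrays (columns, by group). Bottom, log2 of the summed signal of 5 leaf markers (y axis) on the same arrays. NIL-481-B well-watered replicate 2 is low for all 8 members, by 1.09 on average, with leaf markers at 14.07.

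The probes most like the standardised mean profile of the 8 members were, by Pearson's r over the 23 arrays and as a description, LOC_Os07g26640 (0.971), a locus described by the study as an aquaporin, LOC_Os01g74450 (0.928), LOC_Os06g47700 (0.895), LOC_Os06g49505 (0.893) and LOC_Os06g47720 (0.87). LOC_Os01g74450 is TIP1-2, a tonoplast water channel gene. LOC_Os06g47700 and LOC_Os06g47720 have near numbers, and no description of them was used here.

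Among 17 other aquaporin loci, 5 were called higher and 2 lower in the mean drought response (26.5% of all probes called, 14.2% higher), with a median difference of -0.02, and nothing is read from these counts about the list. The calls were led by TIP4-1, a tonoplast channel gene, at 2.47 ± 0.25 (adjusted p = 2.05e-06), which also passed in IR64-Tr-E2 (3.57), IR64-WT (2.43) and Vandana (2.1) and had 1.78 with adjusted p = 0.122 in NIL-481-B, by limma. TIP3-2 (1.27), TIP3-1 (0.97), TIP1-2 (0.95) and the silicon channel gene Lsi1 (0.75) were higher, and OsTIP5;1 (-0.61) and the silicon channel gene Lsi6 (-0.97) were lower. The TIP3-1 and TIP3-2 probes were well above background on 14 arrays each. PIP2-8, a PIP2 locus outside the 10 members, was well above background on 0 of 23 arrays. LOC_Os07g26640, listed here as a PIP locus between PIP2-4 and PIP2-5, had 0.75 ± 0.34 (adjusted p = 0.119 by limma). This was close to its chromosome 7 neighbours PIP2-4 (0.76 ± 0.33) and PIP2-5 (0.75 ± 0.34).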

How the data were processed

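Root RNA of IR64-Tr-E2, IR64-WT, NIL-481-B and Vandana, under drought or well watered, was labelled with Cy3 and hybridised to 23 custom Agilent arrays. Groups and replicate numbers came from the labels. For each array the authors deposited Agilent Feature Extraction output (version 11.0 in the submitters' processing notes, 11.5.1.1 in the file headers) with 62976 spots, whose processed signal is a background-subtracted intensity not normalized between arrays. The authors also deposited log2 values, which matched quantile-normalized, probe-centred values computed here (correlation 0.999978, 23 of 23 arrays best with their own column). The array annotation names build IRGSP5.

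Control spots and spots marked as outliers (0 to 17 per array) were left out, log2 processed signals were averaged per probe and quantile normalized, and limma 3.58.1 (R 4.3.3) fitted 1 mean per group to 52901 probes (52900 in contrasts where 1 probe had no estimate), as the methods' normalization states. Contrasts were tested two-sided with lmFit and eBayes, and p-values were adjusted over all probes by Benjamini-Hochberg (called below 0.05). The methods' rule of more than 2-fold with Bonferroni adjustment was an alternative. The script was tested on simulated data. Groups held 2 or 3 arrays, which limits precision. Correlations used scipy 1.17.1, tables pandas 2.3.3 and numpy 2.4.6, and plots matplotlib 3.10.9, under python 3.11.15.

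All 10 members are named, with the 5 probes most like their mean profile over the 23 arrays and, of the lists, counts and the values a sentence needs. Members, lists (17 other aquaporins, 5 root, 5 leaf and 3 drought markers) and comparisons were chosen with earlier results of these data known. Replicate numbers were not used to pair samples in the main fit. Deviations of same-numbered drought and well-watered arrays correlated between -0.3726 and 0.3386, and those of differently numbered arrays between -0.4211 and 0.4625. These correlations cannot decide on pairing, because deviations from a mean of so few arrays are tied to each other. IR64-Tr-E2 drought replicate 1 gave mirrored values of -0.0597 and 0.0597. The paper states a randomized complete block design, without saying whether replicate numbers are its blocks. Alternatives were a 75th percentile shift, normexp (offset 50), testing only the 29647 probes that at least 1 group had well above background throughout, a block for slide, a block for replicate number, the deposited log2 values, fits of the compared arrays alone and each array left out. Leaving out the 7 arrays with high leaf markers was added after the data were seen. Other probes of a locus could not be tried, since each member has 1 probe.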

Additional observations from a re-analysis of the deposited data

How the results depend on the processing

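The count of members called was 0 in 13 of the 14 comparisons and stayed 0 there in each alternative, except for drought in IR64-Tr-E2, where it was 1 with dim probes filtered out, and 0 to 1 over arrays left out (1 without Vandana well-watered replicate 1). In the mean drought response the main count of 2 became 4 with slide as a block, 0 under the rule of more than 2-fold and Bonferroni adjustment, 0 without the 7 arrays with high leaf markers (an alternative chosen after seeing the data, which also leaves 16 arrays), and 1 to 6 over the arrays left out. With replicate number as a block (replicate block) the count was 2, and the block changed no other count. Same-numbered drought and well-watered arrays shared a slide in all 3 pairs of NIL-481-B and 1 of IR64-Tr-E2. The deviations of same-numbered arrays correlated between -0.3726 and 0.3386, which cannot decide whether the numbers mark pairs.

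The call of PIP1-2 was kept in 29 of 31 alternatives and lost when IR64-Tr-E2 well-watered replicate 1 was left out (0.72, adjusted p = 0.057) and without the high leaf marker arrays. PIP1-1 passed in 9 of 31 alternatives, PIP2-2 in 4, PIP2-4 in 2 and PIP2-3 and PIP2-5 in 1 each. No called value changed sign. Uncalled mean responses of PIP1-3 and PIP2-1, near 0, changed sign in 12 and 11 alternatives. The 75th percentile shift moved the median of all probes in the mean response to -0.62, and relative to it the median of the 8 members was 1.37, against 0.81 after quantile normalization. With 2 or 3 arrays per group and standard errors of 0.38 to 0.87 for a single genotype, differences well above 1 log2 unit did not pass, such as 1.53 ± 0.51 for PIP1-2 in IR64-Tr-E2 (limma adjusted p = 0.0712). The causes were not tested.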
